A study of Mus musculus with 2 samples.

Results

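The 97 genes described here are the nuclear genes of oxidative phosphorylation, chosen by symbol from 31053 gene identifiers: every symbol that begins with Nduf, Uqcr, Atp5 or Sdh, or with Cox followed by a digit from 4 to 8 and a letter, with pseudogene symbols dropped. By symbol, 38 were subunits of complex I, 4 of complex II, 8 of complex III, 18 of complex IV and 16 of complex V, which makes 84 subunits, and the other 13 were assembly factors. These 13 include Atp5s, which was placed there despite its Atp5 symbol. No UMI was counted for Cox7b2, Cox8c and a second identifier of Atp5o. Ndufa4 was counted with complex I by its symbol, although its protein is known as a subunit of cytochrome oxidase.

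The respiratory chain sits in the inner mitochondrial membrane. Complexes I and II feed electrons to ubiquinone, complex III passes them to cytochrome c, complex IV gives them to oxygen, and complex V, the ATP synthase, uses the proton gradient that complexes I, III and IV build. Most subunits are made from nuclear genes and imported, while a few subunits of complexes I, III, IV and V are made from the mitochondrial genome, and complex II is nuclear throughout. Tumour macrophages, T cells and neutrophils are known to differ in how far they rely on this chain or on glycolysis.

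The data were 2 single-cell RNA libraries, 1 per group, made from subcutaneous implants of a syngeneic fibrosarcoma in wild-type C57BL/6 mice whose tumours received autologous erythrocytes in buffered saline or saline alone. The library titled Control carries the treatment label for erythrocytes and the library titled Blood the label for PBS, so titles and treatments contradict each other. Libraries are named here by title, and a difference between them is given no treatment as its source. In both, the tissue was digested with collagenase B and DNase I and erythrocytes were lysed before capture. The number of animals per library is not given in the sources used here, and with 1 library per group no test between groups was possible: every interval below is a 95% interval of counting error only. Pairs of values are given in the order titled Control, titled Blood.

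After filtering, 8823 and 11341 cells were kept, with medians of 9245 and 6577 UMIs per cell (unique molecular identifiers, 1 for each captured molecule). Cells were clustered on variable genes without the members and without mitochondrial genes, and clusters were named "-like" from marker genes. Levels are shares of the UMIs of a class or CPM (UMIs per 1000000 UMIs of the class). The libraries read the 3' end of each transcript, 1 UMI per molecule whatever its length, so CPM was not scaled by gene length, and within a class fewer expressing cells and less RNA per cell cannot be told apart. The 2 libraries had 349 cell barcodes in common, and 339 were kept in both; within these pairs one cell had a median of 51.4 times the UMIs of the other. Such cells made up 78.3% and 82.8% of mesenchymal-like cells, with 94.4% and 94.6% of that class's UMIs, and 56.1% and 66% of osteoclast-like cells, so the results on these 2 classes are followed by the values without them. Among macrophage-like cells they were 2.39% and 1.70%.

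Upstream sequence was looked up for the members because nuclear respiratory genes are known for binding sites of NRF1 and of ETS-family factors. Of 96 member symbols 78 had an entry among RefSeq promoters (GRCm38.p6). For some members, such as Atp5d, the listed start lay inside the annotated gene. The Ndufa1 entry lay beyond the end of the gene on the opposite strand. In the 250 bases upstream of the start, the NRF1 letters (GCGCA, any base, then GCGC) were found in 13 of the 78 (16.7%) against 3.86% of 27025 promoters, and CCGGAAG (ETS) in 15 (19.2%) against 7.05%. Either was found in 25, or 32.05%, against 10.34% of all promoters, and the median GC content was 57% against 52%. GGGCGG (Sp1) was found in 42.3% against 32.9%, CCAAT in 43.6% against 34.5%, TGACGTCA (CRE) in 5.13% against 1.62%, TATAAA in 7.69% against 13% and the YY1 letters (AAGATGG, then CGG) in 0 of 78 against 0.289%. Each was searched on both strands and matches of different motifs may overlap. A match is a match of letters, not a shown site. Both were found in 3 members, Cox6a1, Sdhd and Atp5h. The sequences below show 2 of these and 2 members with neither, as examples of such windows, 5' to 3' on the gene's strand, with NRF1 and ETS letters in capitals.

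Cox6a1, chr5:115348959-115349208, minus strand: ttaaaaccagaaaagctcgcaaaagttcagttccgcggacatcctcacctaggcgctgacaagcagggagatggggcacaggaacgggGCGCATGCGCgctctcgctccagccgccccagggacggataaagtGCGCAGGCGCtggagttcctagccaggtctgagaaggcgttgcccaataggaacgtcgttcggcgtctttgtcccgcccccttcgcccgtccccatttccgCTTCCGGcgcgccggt

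Sdhd, chr9:50603850-50604099, minus strand: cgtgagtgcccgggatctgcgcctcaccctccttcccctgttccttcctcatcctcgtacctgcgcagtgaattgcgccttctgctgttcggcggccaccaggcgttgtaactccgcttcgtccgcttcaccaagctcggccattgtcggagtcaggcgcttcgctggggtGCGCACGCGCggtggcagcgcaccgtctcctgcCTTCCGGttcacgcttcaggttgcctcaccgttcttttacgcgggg

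Ndufa4, chr6:11907451-11907700, minus strand: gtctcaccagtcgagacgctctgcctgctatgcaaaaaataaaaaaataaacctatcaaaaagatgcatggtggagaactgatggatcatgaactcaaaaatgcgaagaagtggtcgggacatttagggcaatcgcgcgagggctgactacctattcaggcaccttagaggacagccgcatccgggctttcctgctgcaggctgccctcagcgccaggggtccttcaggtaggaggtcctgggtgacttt

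Cox7a1, chr7:30183921-30184170, plus strand: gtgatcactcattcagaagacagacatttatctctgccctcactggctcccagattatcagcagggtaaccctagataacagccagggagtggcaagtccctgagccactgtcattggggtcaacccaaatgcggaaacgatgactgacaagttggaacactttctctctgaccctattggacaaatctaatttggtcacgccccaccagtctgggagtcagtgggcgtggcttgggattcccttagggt

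Cox6a1, the common form of a complex IV subunit, and Sdhd, a membrane anchor of complex II, hold both motifs. Ndufa4 and Cox7a1, the muscle form of another complex IV subunit, hold neither in this window. These examples say nothing on how motifs go with levels: Ndufa5, with the widest range of levels between classes, holds an NRF1 match.

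In macrophage-like cells, the largest class with 5197 and 5236 cells, the nuclear genes made up 2.30% and 2.34% of UMIs, a ratio of 1.01 (1.01 to 1.02). Complexes I, IV and V contributed almost equal parts, at 0.677% and 0.691%, 0.638% and 0.652%, and 0.679% and 0.681% of UMIs. Complex III held 0.231% and 0.236%, and complex II, the smallest, 0.0487% and 0.0471%. Of the nuclear subunit UMIs in the library titled Control, complex I thus had 29.8%, II 2.14%, III 10.1%, IV 28.1% and V 29.8%. Assembly factors, which help build complexes and are not part of them, together held 0.0314% and 0.0310%.

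In complexes I and III, small accessory subunits had the most UMIs. In complex I Ndufa2 stood at 381 and 399 CPM, Ndufa13 at 347 and 341 and Ndufa7 at 284 and 290, while Ndufs1, an iron-sulphur core subunit, was the lowest measured one at 38.3 and 40.5 CPM. In complex II the iron-sulphur subunit Sdhb had 176 and 158 CPM and the anchor Sdhd 112 and 111. Sdha, the flavoprotein that oxidises succinate, had 101 and 103 CPM and the anchor Sdhc 98.5 and 98.7, so the 4 subunits lay within a 2-fold range of one another. In complex III the hinge protein Uqcrh led at 477 and 503 CPM, ahead of Uqcrq at 414 and 413 and Uqcr11 at 372 and 404, and the core protein Uqcrc2 was lowest at 88.3 and 84.1.

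Cytochrome oxidase and ATP synthase genes were the most abundant members. Cox4i1 stood at 949 and 1006 CPM, Cox8a at 789 and 762 and Cox7c at 754 and 809, and Cox4i2, known as the oxygen-responsive form of Cox4i1, was the lowest measured at 8.54 and 11.5. Atp5e, the epsilon subunit of the ATP synthase rotor stalk, had 918 and 950 CPM, Atp5l 643 and 685 and Atp5g2, one of the genes of the c-ring, 550 and 551. Atp5o of the stator had 283 and 280 CPM and the c-ring gene Atp5g3 270 and 295, both near the low end of complex V. Assembly factors had far lower levels. Ndufaf8 had 85.2 and 80.0 CPM, Sdhaf4 39.3 and 40.5, Sdhaf2 35.5 and 36.1, and Sdhaf1 23.0 and 23.1.

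**Figure D1:**
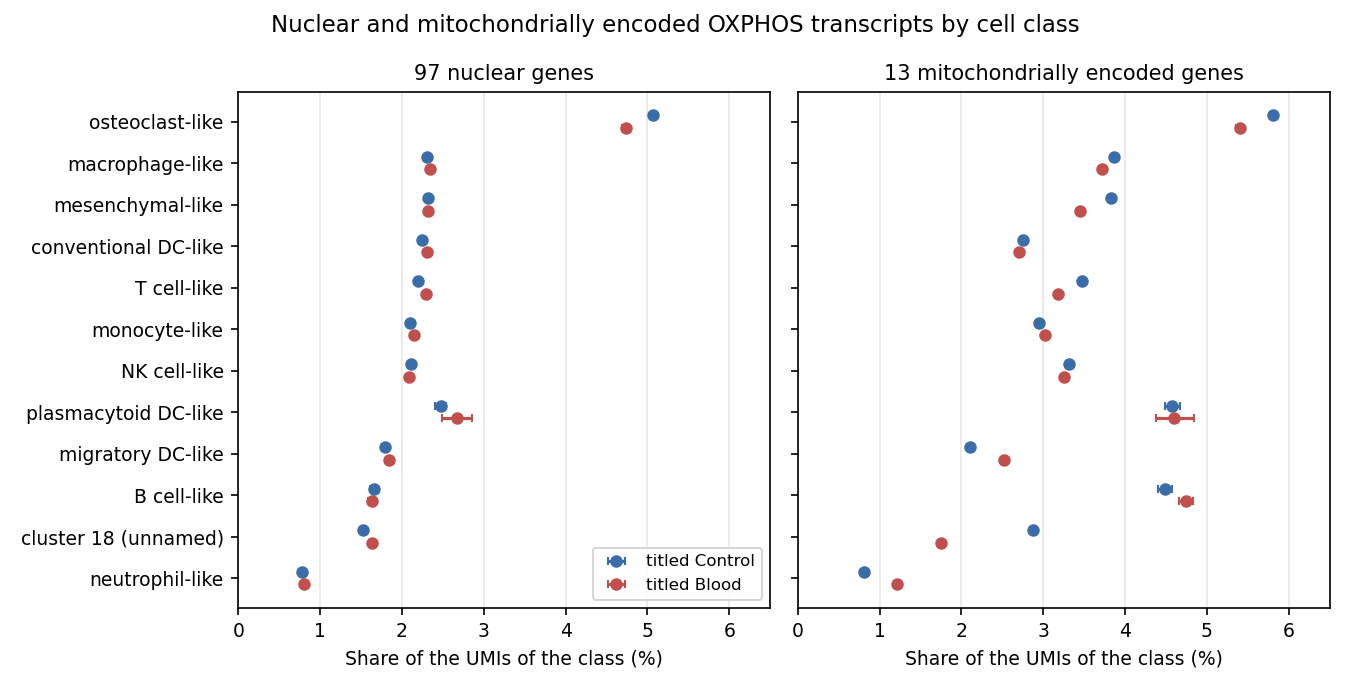
Share of the UMIs of each cell class (%, x axis) taken by the 97 nuclear genes (left) and the 13 mitochondrially encoded protein genes (right), with 1 point per library and 95% counting intervals. Nuclear shares lie between 0.775% in neutrophil-like and 5.07% in osteoclast-like cells, and those of the 2 libraries lie close together within each class. Mitochondrially encoded shares lie further apart in some, such as 0.811% and 1.21% in neutrophil-like cells.

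The nuclear share was similar in several of the larger classes. Monocyte-like cells had 2.10% and 2.15%, conventional DC-like cells 2.24% and 2.31%, T cell-like cells 2.20% and 2.29%, and NK cell-like cells 2.11% and 2.09%. Mesenchymal-like cells, which carry the collagen and Sparc transcripts of the tumour stroma or the sarcoma itself, had 2.31% and 2.31% (ratio 0.999, 0.991 to 1.01). Without the cells whose barcode occurred in both libraries, 28 and 15 mesenchymal-like cells were left, at 1.797% and 1.823% (ratio 1.01, 0.972 to 1.06). Migratory DC-like cells (63 and 60 cells) had 1.79% and 1.85% and B cell-like cells 1.66% and 1.63%. Lower shares were found in neutrophil-like cells and, in the library titled Control, in the unnamed cluster 18, and the highest in osteoclast-like cells.

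Neutrophil-like cells had nuclear shares of 0.775% and 0.798% (ratio 1.03, 0.983 to 1.08), against 2.30% and 2.34% in macrophage-like cells. A member was counted as higher or lower here when it differed from macrophage-like cells by at least 1.5-fold, on the log2 scale of CPM plus 5, in both libraries. Of 84 measured members 77 were lower, against 44.8% of all 8010 genes measured, and the median log2 differences were -1.61 and -1.72 against -0.69 and -0.59 over all genes. All 8 complex III and 15 of 15 measured complex V members were among the lower ones. Medians per cell were 0.76% and 0.70% in neutrophil-like and 2.18% and 2.2% in macrophage-like cells. Thinned to 1000 UMIs, they were 0.7% in both libraries of neutrophil-like cells and 2.2% in both of macrophage-like cells. For this, 5 and 211 neutrophil-like and 58 and 127 macrophage-like cells were too shallow. Thinning leaves the expected share of a cell unchanged, so it cannot tell this difference from one in RNA per cell. In macrophage-like cells the nuclear share rose with UMIs per cell (rank correlation 0.47 and 0.50), and in neutrophil-like cells hardly (-0.07 and 0.04).

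Single members differed widely in how much lower they were. Ndufa5, a subunit of the complex I arm that accepts electrons, had 3.85 and 8.36 CPM in neutrophil-like and 140 and 148 in macrophage-like cells. Ndufc2 of the complex I membrane arm had 23.1 and 24.1 against 253 and 274, and the c-ring gene Atp5g1 42.4 and 49.5 against 384 and 370. At the other end Cox8a had 593 and 611 CPM against 789 and 762, and Ndufa7 281 and 268 against 284 and 290. The 1 member that was higher was the complex I assembly factor Ndufaf7, at 15.4 and 19.5 CPM against 7.58 and 6.77. It reached the minimum of 10 CPM only through the neutrophil-like cells, so it could not come out lower. In neutrophil-like cells titled Control, Ndufaf7 was near the floor of 3 UMIs and Ndufa5 below it. Over the 7 classes compared, neutrophil-like cells had the lowest level in both libraries for 79 of the 83 members with a mean of at least 10 CPM, against 37.5% of all 8118 genes with such a mean.

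The neutrophil-like cells were shallow, with medians of 1962 and 1747 UMIs, and unequal in number, 129 and 1776. The summed level of the 10 neutrophil markers was 74100 and 58900 CPM in them, that of the 10 macrophage markers 1501 and 1642 against 26610 and 25180 in macrophage-like cells, and that of 8 erythroid markers 0 and 11.5. Ribosomal protein genes took 4.23% and 4.52% of their UMIs against 16.5% and 17.1% in macrophage-like cells. On a total without mitochondrial and ribosomal UMIs the nuclear share was 0.819% and 0.849%. The part of free RNA from other cells in these values was not tested.

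Osteoclast-like cells, a small class of 66 and 50 cells led by Ctsk, Acp5 and Atp6v0d2, had nuclear shares of 5.07% and 4.73%, against 2.30% and 2.34% in macrophage-like cells. Osteoclasts are known as large cells rich in mitochondria that secrete acid. Of 86 measured members 73 were higher than in macrophage-like cells and 0 lower, against 13.3% higher and 18.8% lower among all 7998 genes, with median log2 differences of 1.09 and 0.96 against -0.08 and -0.05. All 8 measured members of complex III, all 4 of complex II and all 12 of complex IV were higher, and so were 30 of 37 of complex I and 14 of 15 of complex V. Of the 10 measured assembly factors 5 were. Among these, Ndufaf1, Ndufaf5 and Ndufaf6 reached the minimum of 10 CPM only through the osteoclast-like cells, so they could not come out lower.

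The Rieske iron-sulphur protein Uqcrfs1 had 452 and 419 CPM in osteoclast-like against 127 and 123 in macrophage-like cells, and Uqcr10 1247 and 1120 against 346 and 346. Sdhb had 545 and 486 against 176 and 158. Without cells of shared barcodes the osteoclast-like levels were lower, at 378 and 325 CPM for Uqcrfs1, 1012 and 816 for Uqcr10 and 440 and 365 for Sdhb. Complexes II and III took more of the nuclear subunit UMIs than in macrophage-like cells, 2.73% and 2.71% against 2.14% and 2.04% for complex II, and 12.5% and 12.6% against 10.1% and 10.2% for complex III. Without those cells the osteoclast-like shares were 2.62% and 2.54% for complex II and 12.2% and 11.6% for complex III. Ndufaf8, at 89.9 and 87.6 CPM, and Sdhaf2, at 39.0 and 38.4 CPM, were close to their macrophage-like levels, and stood at 100.2 and 89.0 CPM and at 39.2 and 30.7 CPM without those cells. Without the cells of shared barcodes, 29 and 17 osteoclast-like cells were left, with nuclear shares of 4.54% and 3.99%, and 57 of 85 members were higher, against 11.2% of all genes, with medians of 0.97 and 0.74. The library difference within this class was a ratio of 0.934 (0.923 to 0.945) with these cells and 0.877 (0.860 to 0.896) without them.

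Cluster 18 (81 and 307 cells) was left unnamed; its leading genes included Hmox1, which degrades haem, Arg1, Mmp12 and Ero1l. Its nuclear share was 1.52% and 1.64%, a ratio of 1.07 (1.05 to 1.09). Against macrophage-like cells 33 of 85 members were lower, against 16.7% of all genes, and 3 were higher, against 9.75%. The lower ones included Atp5g1, at 156 and 137 CPM against 384 and 370, and Sdhb, at 72.3 and 64.9 against 176 and 158. The 3 higher ones were alternative isoforms of subunits: Ndufa4l2 at 14.3 and 16.9 CPM against 0.633 and 0.665, Cox4i2 at 18.3 and 29.5 against 8.54 and 11.5, and Cox7a1 at 24.4 and 34.4 against 11.5 and 12.9. Ndufa4l2 in both libraries and Cox4i2 in the library titled Control reached the minimum of 10 CPM only through cluster 18. There they could come out higher but not lower. Ndufa4l2 and Cox4i2 are known as hypoxia-inducible. All 10 macrophage markers were detected in this cluster and summed to 14160 and 7406 CPM, monocyte markers to 782 and 1488, and the list of platelet genes, led by Pf4, which macrophages also make, to 4704 and 8682. The part of this difference in markers in the values of cluster 18 was not tested.

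**Figure D2:**
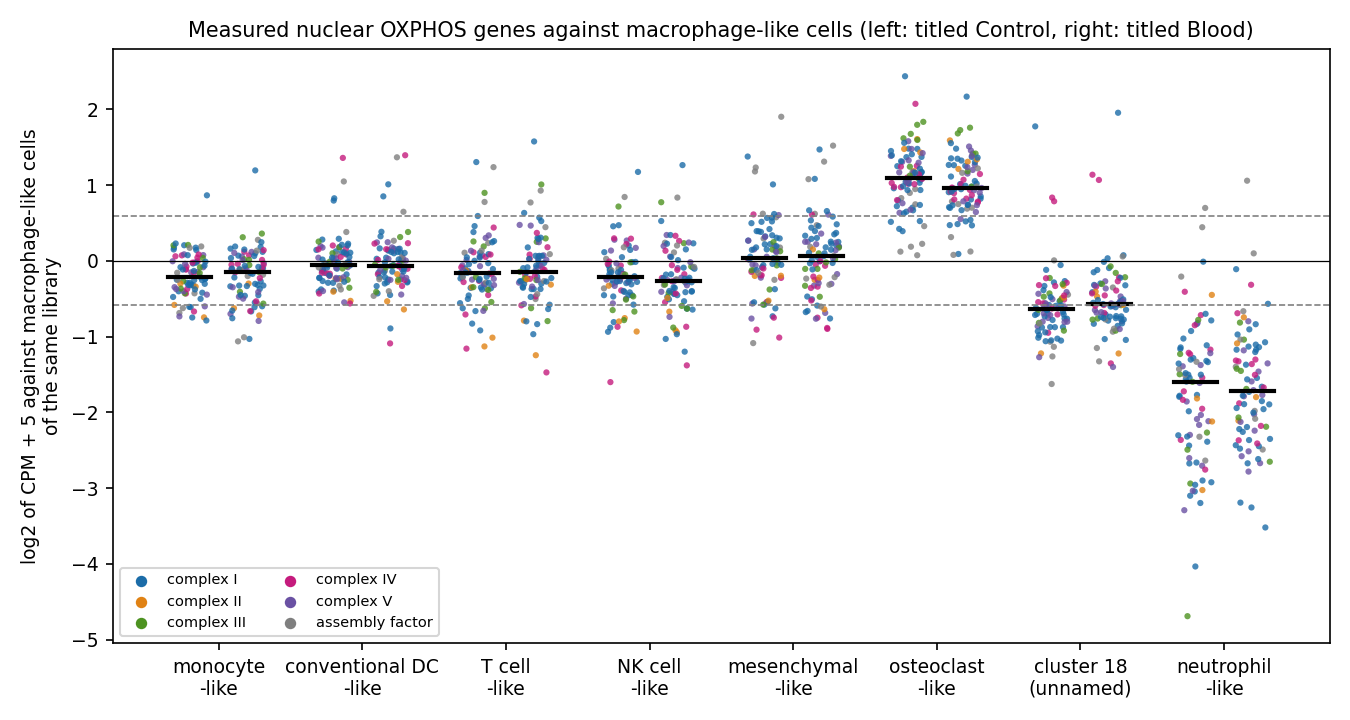
Each point is a measured nuclear member, placed by its log2 difference from macrophage-like cells of the same library (y axis, CPM plus 5), for titled Control on the left and titled Blood on the right of each class; black bars are medians and dashed lines mark 1.5-fold. Neutrophil-like medians lie at -1.61 and -1.72, osteoclast-like medians at 1.09 and 0.96.

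Monocyte-like, conventional DC-like, T cell-like and NK cell-like cells differed from macrophage-like cells in few members. In monocyte-like cells 1 of 83 was higher and 10 lower (background 9.1% and 15.4%), in conventional DC-like cells 4 of 85 higher and 0 lower (9.33% and 13.8%), in T cell-like cells 5 of 84 higher and 9 lower (20.7% and 21.1%), and in NK cell-like cells 3 of 84 higher and 11 lower (16.8% and 23.7%). These shares of members were below the background in each direction. Ndufa4 was the single member higher in all 4 of these classes. Ndufaf7 in T cell-like and NK cell-like cells and Cox6b2 in conventional DC-like cells reached the minimum of 10 CPM only through those cells. They were counted as higher and could not come out lower. Cox7a1, counted as lower in T cell-like and NK cell-like cells, reached it only through macrophage-like cells and could not come out higher. Cox5a, a matrix-side subunit of complex IV, was lower in monocyte-like (442 and 427 CPM), T cell-like (430 and 450) and NK cell-like cells (383 and 370) than in macrophage-like cells (705 and 680). Uqcrh was higher in T cell-like cells, at 892 and 1016 CPM, and NK cell-like cells, at 786 and 863, than in macrophage-like cells, at 477 and 503. In mesenchymal-like cells 8 of 87 members were higher than in macrophage-like cells and 6 lower. Ndufaf6 and Ndufaf7, among the higher ones, reached the minimum only through the mesenchymal-like cells and could not come out lower. The median log2 differences there were 0.03 and 0.06, against 0.23 and 0.21 over all genes. For this class no background share is given. Its members were not counted without the cells of shared barcodes, which held 94.4% and 94.6% of its UMIs.

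Among complex IV paralogues, Cox6a2 was sharply divided between classes, while Cox4i1 and Cox7a2 stayed above Cox4i2 and Cox7a1 in all 7 classes compared. Cox6a2, the heart and muscle form of Cox6a1, reached 1746 and 3151 CPM in plasmacytoid DC-like cells, from 349 and 99 UMIs in 23 and 4 cells. Elsewhere it stood at most at 6.18 CPM, in conventional DC-like cells titled Control. In the same cells Cox6a1 had 315 and 287 CPM, less than Cox6a2. Cox6a2 is itself a known marker of plasmacytoid DCs, and was not used to name these cells.

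Cox7a1 had 64.5 and 26.4 CPM in osteoclast-like cells, and 49.4 and 18.4 CPM (34 and 6 UMIs) without cells of shared barcodes, against 24.4 and 34.4 in cluster 18. Its common counterpart Cox7a2 had 921 and 854 CPM in osteoclast-like cells, and 831 and 828 without those cells. Cox8b, the muscle form of Cox8a, was at 0.0124 and 0.0131 CPM in macrophage-like cells, which is a single UMI in each library, and Cox6b2 did not pass 16.6 CPM in any class. Among the 3 genes for the c-ring, Atp5g2 led in macrophage-like cells. In osteoclast-like cells Atp5g1 had 1036 and 975 CPM and Atp5g2 881 and 920, but 836 and 779 against 828 and 920 without cells of shared barcodes, so their order there rests on those cells.

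**Figure D3:**
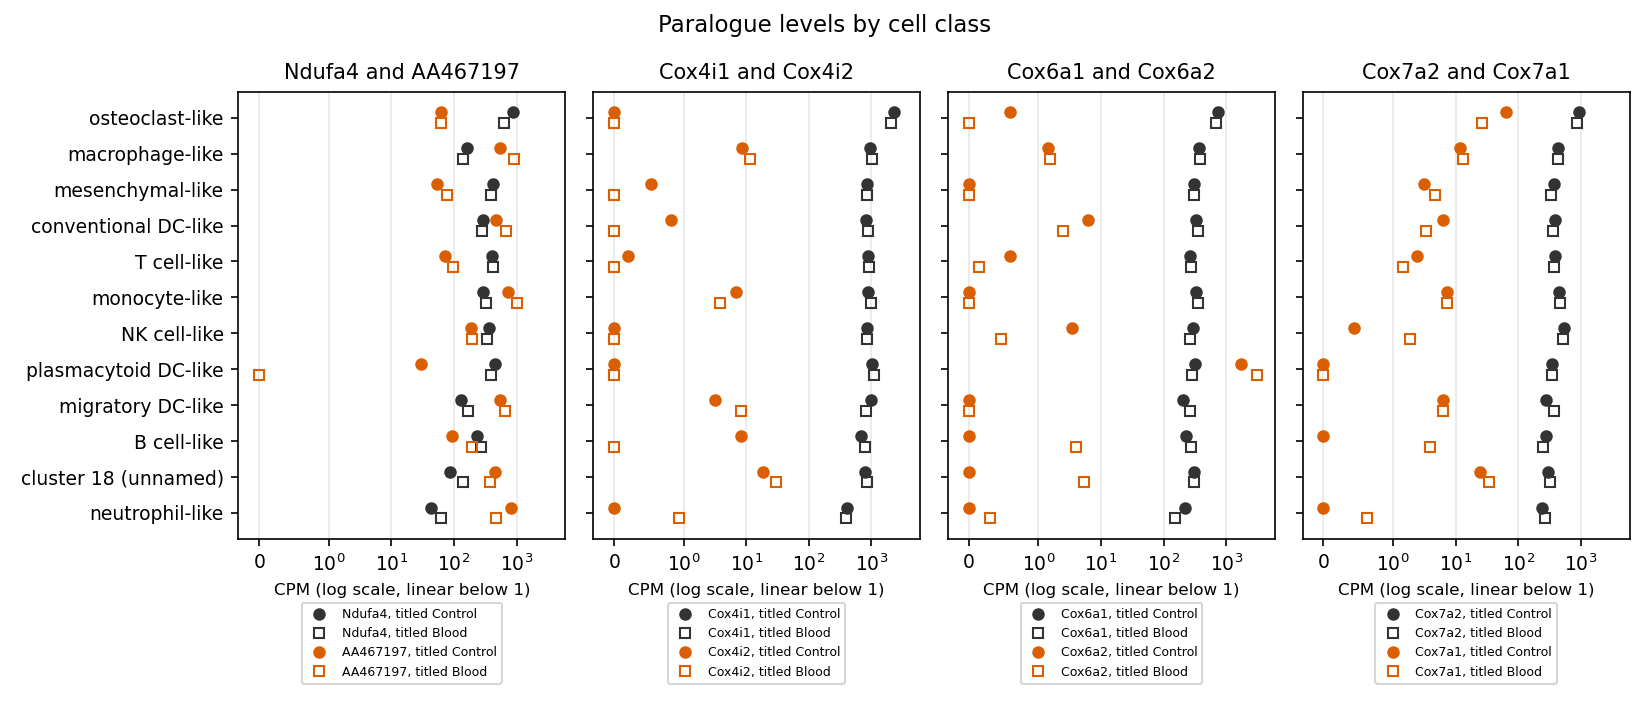
CPM (x axis, log scale that is linear below 1) of 4 pairs of genes by cell class, with filled circles for titled Control and open squares for titled Blood. Cox6a2 stands at 1746 and 3151 CPM in plasmacytoid DC-like cells and at or near 0 elsewhere, while Cox4i1, Cox6a1 and Cox7a2 vary little outside osteoclast-like and neutrophil-like cells.

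Ndufa4 was also set beside AA467197. This gene is the mouse counterpart of human C15orf48, whose protein is known to replace NDUFA4 in cytochrome oxidase; it is not a member, and was chosen after its values were seen. Ndufa4 was lowest in neutrophil-like cells, at 42.4 and 62.8 CPM, and low in macrophage-like cells, at 159 and 138, where AA467197 had 797 and 472, and 536 and 894 CPM. Ndufa4 was high in T cell-like (401 and 421), mesenchymal-like (422 and 391) and osteoclast-like cells (885 and 637), where AA467197 had 72.4 and 95.3, 54.2 and 76.0, and 62.1 and 61.2 CPM. Without cells of shared barcodes Ndufa4 stood at 204 and 231 CPM in mesenchymal-like and 735 and 476 CPM in osteoclast-like cells, and AA467197 at 90.9 and 269 CPM (29 and 50 UMIs) and at 113 and 73.6 CPM. The mesenchymal-like contrast between the 2 genes thus did not hold in the library titled Blood without those cells. Other classes had much of both: monocyte-like cells had 294 and 322 CPM of Ndufa4 and 714 and 1006 of AA467197, and conventional DC-like cells 286 and 283, and 469 and 667. NK cell-like cells had 366 and 338 CPM of Ndufa4 and 187 and 190 of AA467197.

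Between the 2 libraries, the members of most classes hardly differed. None of the 84 measured in macrophage-like cells was 1.5-fold higher or lower in the library titled Blood, where 0.437% of 7781 genes were higher and 0.887% lower, on the log2 scale of CPM plus 5. The median log2 ratio of the members was 0.02 against 0.01 over all genes, and single members ranged from -0.20 for Ndufa4 to 0.28 for Cox4i2. No member passed 1.5-fold in monocyte-like cells (83 measured; background 0.711% higher and 1.07% lower), T cell-like cells (84; 0.766% and 0.974%), NK cell-like cells (84; 2.53% and 1.9%) or mesenchymal-like cells (87; 1.29% and 1.7%). Without cells of shared barcodes, 7 mesenchymal-like members were higher and 5 lower, on far fewer UMIs. In conventional DC-like cells 1 of 85 was higher (background 2.84%) and 0 lower (2.46%): the assembly factor Ndufaf6, at 8.65 and 16.1 CPM (ratio 1.86, 1.04 to 3.38). Ndufaf6 reached the minimum of 10 CPM only through the library titled Blood, so it could not come out lower.

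The small ratios leaned the same way for some members across classes, although the classes share the same 2 libraries and are not independent. Ndufv3, an accessory subunit of the complex I flavoprotein module, was among the 4 highest in macrophage-like cells at 237 and 261 CPM (ratio 1.1, 1.08 to 1.12), in T cell-like cells at 253 and 296 (1.17, 1.09 to 1.26) and in NK cell-like cells at 170 and 203 (1.19, 1.04 to 1.37). Sdhb was among the 4 lowest in macrophage-like cells at 176 and 158 CPM (ratio 0.901, 0.880 to 0.923), conventional DC-like cells at 148 and 130 (0.877, 0.745 to 1.03) and NK cell-like cells at 102 and 81.3 (0.799, 0.652 to 0.977). Ndufa4 had the lowest macrophage-like ratio, 0.866 (0.843 to 0.888), and AA467197 had a macrophage-like ratio of 1.67 (1.65 to 1.69). In monocyte-like cells Ndufa4 was not lower, at a ratio of 1.09 (1.02 to 1.17).

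Other named extremes were of similar size. In macrophage-like cells Atp5g3 stood at 270 and 295 CPM, Uqcr11 at 372 and 404 and Ndufc2 at 253 and 274, against Ndufs8 at 108 and 96.4 and Ndufs4 at 117 and 106. Among members that reached 50 CPM in a library and 100 UMIs in all, the highest ratio in monocyte-like cells was that of Uqcrh, at 550 and 647 CPM (ratio 1.18, 1.12 to 1.23), and the lowest that of Ndufa12, at 102 and 81.1 (0.797, 0.706 to 0.899). By the same rule these were, in T cell-like cells, Ndufa11, at 188 and 224 CPM (1.19, 1.098 to 1.293), and Sdhaf1, at 61.0 and 48.4 (0.793, 0.677 to 0.929). Mesenchymal-like cells had Ndufa6 at 228 and 278 CPM (1.22, 1.12 to 1.33), which was 198 and 183 CPM without cells of shared barcodes, and Ndufaf2 at 123 and 101, which was 65.8 and 43.0 without them.

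**Figure D4:**
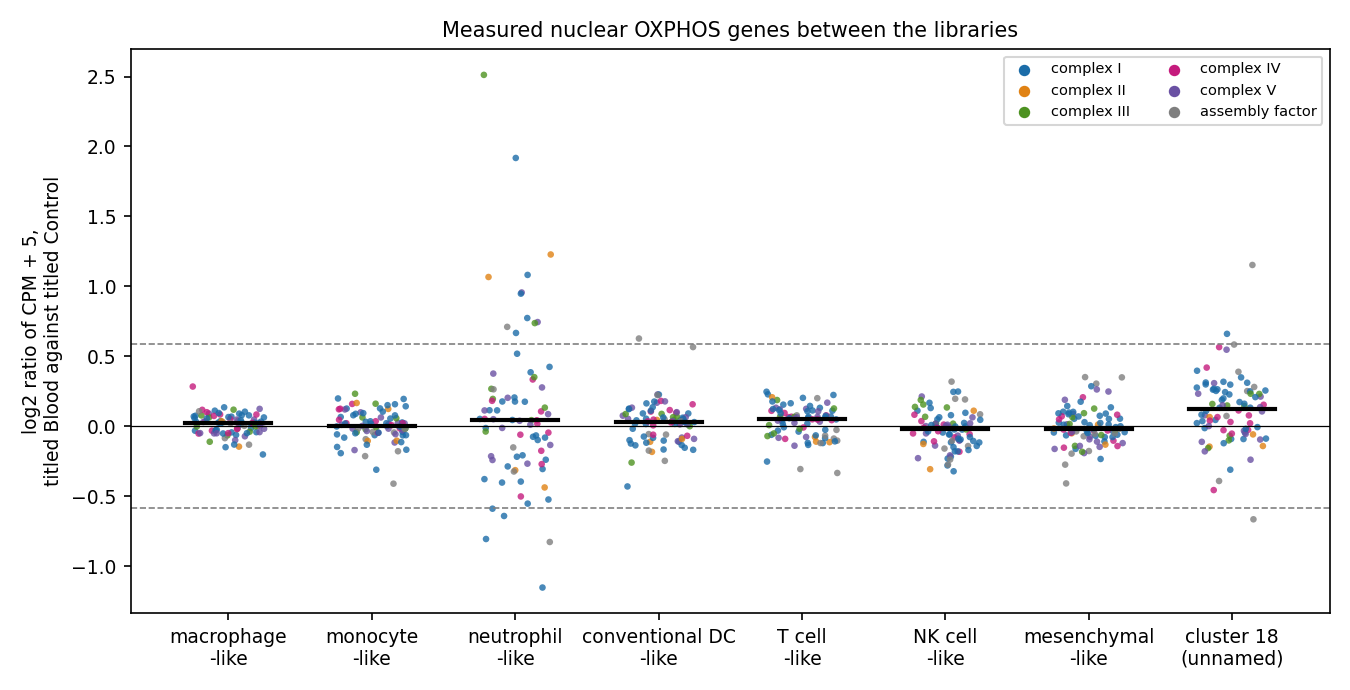
Each point is a measured nuclear member, placed by its log2 ratio of CPM plus 5 between titled Blood and titled Control (y axis) in 7 classes and cluster 18; black bars are medians and dashed lines mark 1.5-fold. Macrophage-like members lie between -0.20 and 0.28, and neutrophil-like members, with medians of 14.5 and 199.5 UMIs per member, spread from -1.15 to 2.51.

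Neutrophil-like cells gave 12 members higher and 5 lower out of 78, at a background of 20.9% and 14.1% of all genes. The members' counts were thus below the background in both directions. They turned to 1 higher and 37 lower when the libraries were clustered separately, and to 37 higher and 1 lower with doublets kept. The counting interval of the ratio left out 1 for 4 of the 12 and 1 of the 5, because a member had a median of only 14.5 UMIs in the library titled Control. Ndufv3 had 7 and 374 UMIs, 26.9 and 116 CPM (ratio 4.29, 2.06 to 10.8), Ndufa12 23.1 and 54.5 CPM (2.36, 1.06 to 6.51) and Atp5d, the delta subunit of the ATP synthase, 50.1 and 102 CPM (2.03, 1.17 to 3.86). The core protein Uqcrc1 had 0 and 76 UMIs, or 23.5 CPM in the library titled Blood against a floor of 11.6 CPM, which is 3 UMIs, in the library titled Control. Ndufa8 was lower, at 57.8 and 23.2 CPM (0.402, 0.229 to 0.754). The other higher ones were Sdhc, Sdha, Ndufv2, Ndufs3, Atp5g3, Uqcrc2, Ndufaf3 and Ndufs1, and the other lower ones Sdhaf1, Ndufa11, Ndufa10 and Ndufs8. In the library titled Control, Sdhc, Ndufs3, Ndufaf3 and Ndufs1 each had 7.7 CPM. Like Uqcrc1, they reached the minimum of 10 CPM only through the library titled Blood, so they could not come out lower. Sdhaf1, at 19.25 and 8.665 CPM, reached it only through the library titled Control and could not come out higher.

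The nuclear ratio of neutrophil-like cells depended on which cells were counted. When the libraries were clustered separately, 9 cells with a median of 6749 UMIs joined the class in the library titled Control, holding 25.03% of its UMIs, and the log2 ratio moved from 0.04 to -0.47. With doublets kept, 125 cells joined in the library titled Blood, with 30.8% of its UMIs, and it moved to 0.50. The nuclear share was recomputed in 4 settings, including the total without mitochondrial and ribosomal UMIs. It lay between 0.775% and 1.08% in the library titled Control and between 0.782% and 1.17% in the library titled Blood. In B cell-like cells, the named class with the next lowest share, it was 1.66% and 1.63%.

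In cluster 18, 2 of the 86 members measured were 1.5-fold higher (background 11.3%) and 1 was lower (6.31%). Ndufa4 had 84.5 and 136 CPM (ratio 1.61, 1.26 to 2.09), the opposite direction to macrophage-like cells. Ndufaf7 had 2 and 22 UMIs, and Sdhaf4 27.5 and 15.5 CPM (0.563, 0.327 to 0.978). Ndufaf7 reached the minimum of 10 CPM only through the library titled Blood, so it could not come out lower.

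The 13 mitochondrially encoded genes of the same cells differed more between the libraries than the nuclear ones in some classes and not in others. In monocyte-like cells both ratios were 1.02, and in conventional DC-like cells they were 0.981 for the mitochondrially encoded and 1.03 for the nuclear genes. The mitochondrially encoded genes took 3.87% and 3.72% of macrophage-like UMIs (ratio 0.963, 0.961 to 0.965), so that 1.68 and 1.59 mitochondrially encoded UMIs were counted per nuclear one. The T cell-like share was 3.47% and 3.18% (0.917, 0.912 to 0.923) and the mesenchymal-like share 3.83% and 3.45% (0.901, 0.894 to 0.907), which was 7.66% and 7.66% without cells of shared barcodes. Leaving out only the smaller cell of each shared barcode left the mesenchymal-like share at 3.83% and 3.45%. Osteoclast-like cells had 5.80% and 5.40%, or 1.14 and 1.14 per nuclear UMI, and without cells of shared barcodes 6.58% and 5.66%, or 1.45 and 1.42 per nuclear UMI. B cell-like cells, with 37 and 59 cells, had 2.71 and 2.91. Cells above 20% mitochondrial UMIs had been removed, which bounds these shares.

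Neutrophil-like cells and cluster 18 differed most between libraries, in opposite directions. The neutrophil-like share was 0.811% and 1.21% (ratio 1.49, 1.42 to 1.55), with 1.05 and 1.51 per nuclear UMI. The medians per cell were closer, 0.501% and 0.584%, and when the libraries were clustered separately the log2 ratio turned from 0.57 to -0.34. Within the 2 neutrophil-like clusters the ratios were 1.41 (109 and 1066 cells) and 1.84 (20 and 710 cells). The share in cluster 18 was 2.88% and 1.75% (0.608, 0.599 to 0.618), with per-cell medians of 2.11% and 1.18%, while the nuclear share was slightly higher in the library titled Blood. In its 4 subclusters the ratios were 0.842, 1.01, 0.608 and 0.581, from only 28, 15, 30 and 8 cells in the library titled Control.

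Single mitochondrial genes did not move together. mt-Co1, the catalytic subunit of cytochrome oxidase, had 8569 and 9037 CPM in macrophage-like cells, whereas mt-Cytb of complex III had 2545 and 2235 (ratio 0.878, 0.873 to 0.884), mt-Atp6 of the ATP synthase 6883 and 6096 (0.886, 0.882 to 0.889) and mt-Nd2 1507 and 1300 (0.863). mt-Nd5 had 373 and 411. In T cell-like cells mt-Co1 had 7151 and 7300 CPM and mt-Cytb 2233 and 1867, and in NK cell-like cells 6414 and 7252 and 2031 and 1816. The ratio of mt-Cytb was thus below that of mt-Co1 in each of these 3 classes. In neutrophil-like cells mt-Co1 had 1621 and 2797 CPM (1.73, 1.56 to 1.91) and mt-Nd3 158 and 162, and in cluster 18 mt-Nd3 had 528 and 184 (0.349).

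**Figure D5:**
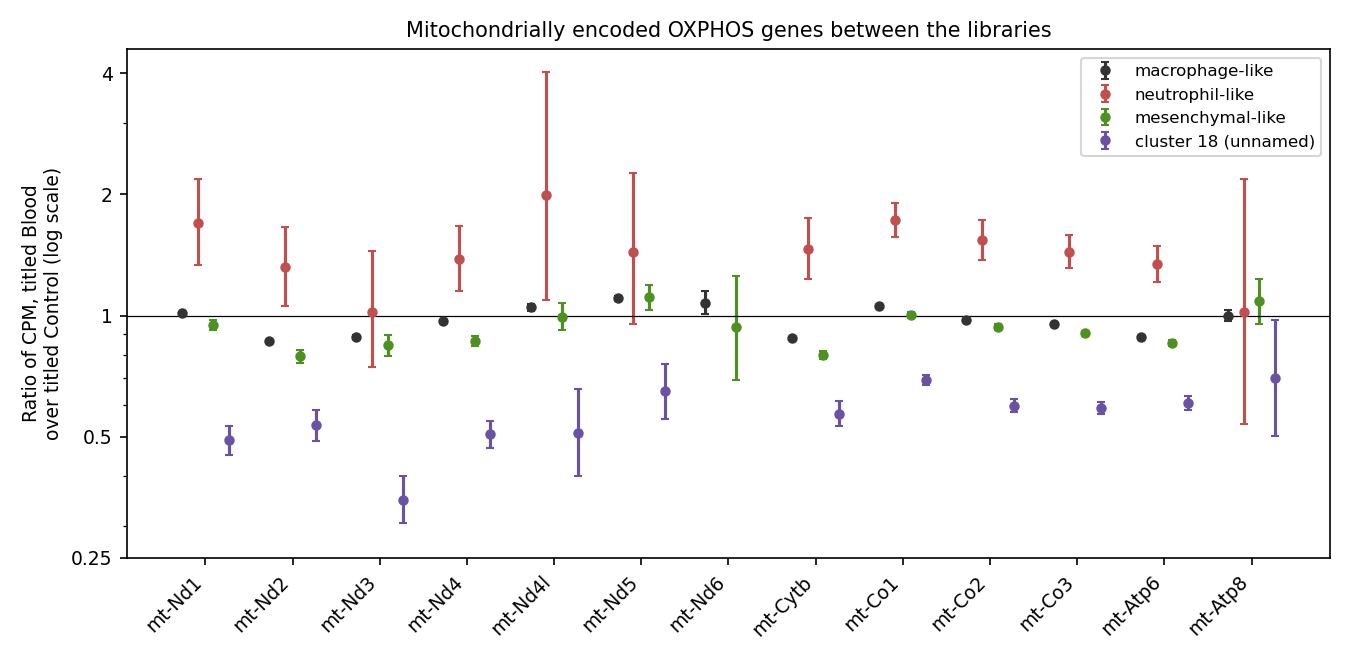
Ratio of CPM between titled Blood and titled Control (y axis, log scale) for the 13 mitochondrially encoded genes in 3 classes and cluster 18, with 95% counting intervals; genes with fewer than 100 UMIs over both libraries are not drawn. The drawn neutrophil-like ratios lie above 1, such as 1.73 for mt-Co1, and those of cluster 18 below it, such as 0.349 for mt-Nd3.

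Genes around the chain were read from 8 lists. In macrophage-like cells the tricarboxylic acid cycle list had 15 of 15 genes measured and 0 past 1.5-fold in either direction (median log2 ratio 0.00), the 7 electron carriers 0 (median -0.04), 12 of 16 cytochrome oxidase assembly genes 0 (median -0.03) and 7 of 12 genes of biogenesis and mitochondrial transcription 0 (median 0.06). Glycolysis had 0 of 14 (median 0.12). Of 8 measured hypoxia-linked mitochondrial genes 1 was higher, Bnip3, a mitophagy receptor, at 74.5 and 120 CPM (ratio 1.62, 1.56 to 1.67). The inhibitor Atpif1 had 530 and 566 CPM, and Ucp2, an inner membrane carrier, 711 and 572. The list of the ATP synthase inhibitor and carriers had 8 of 10 measured and 0 past 1.5-fold (median -0.03), and 6 proliferation genes 0 (median -0.30). Over all genes the median was 0.01.

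In neutrophil-like cells, where 20.9% of all genes were higher, glycolysis and hypoxia-linked genes were often among them. The difference from the respiratory chain was not tested. The lists were read in the main clustering only, while the member counts of this class turned with the cells counted. The class was also made up differently, with 1 of its clusters holding 20 of 129 and 710 of 1776 cells. Of 14 glycolysis genes 11 were higher in the library titled Blood (median 0.96), such as Hk2 at 196 and 571 CPM, Gpi1 at 285 and 795 and Ldha at 628 and 1575. Of 7 measured hypoxia-linked genes 6 were higher (median 0.91), among them Bnip3 at 169 and 742 CPM, Bnip3l at 254 and 715 and Higd1a, which binds cytochrome oxidase, at 131 and 350. The nuclear members had a median of 0.04 and all genes one of 0.06. Of 12 tricarboxylic acid cycle genes 3 were higher and 1 lower (median -0.06), of 5 electron carriers 1 and 1 (0.26), of 8 cytochrome oxidase assembly genes 0 and 0 (-0.02), of 5 biogenesis genes 2 and 1 (0.38), of 8 carriers 2 and 0 (-0.04) and of 2 proliferation genes 1 and 1 (0.49). In cluster 18, where 11.3% of all genes were higher, 3 of 9 hypoxia-linked genes were (median 0.47), such as Pdk1, which shuts pyruvate dehydrogenase, at 50.9 and 82.3 CPM.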

How the data were processed

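The files deposited by the authors hold unnormalized UMI counts for each gene in each cell barcode. The submitters' processing notes name Cell Ranger 3.1.0 and the mm10 build. Libraries were 10x 3' libraries, 1 per group, of 115272096 and 115066023 UMIs in the order titled Control, titled Blood. Barcodes with at least 500 UMIs, 300 genes and at most 20% mitochondrial UMIs were kept, and called doublets, 162 and 276, were removed (1.80% and 2.38%, where 7.58% and 9.65% could occur at this loading). Both libraries were clustered together without batch correction (scanpy 1.11.5, 2000 variable genes, 30 components, 15 neighbours, Leiden resolution 1), and clusters were named from 18 marker lists. Names were rebuilt here and may differ from the study's.

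UMIs were summed per class and library. A gene counted as measured from 10 CPM in either of them and 10 UMIs over both. Fold thresholds used log2 of CPM plus 5, ratios used CPM, and intervals were exact 95% counting intervals. No test between groups was made. Named genes were the 3 highest and the lowest of each complex in macrophage-like cells, up to 4 highest and 4 lowest ratios per class (at least 50 CPM and 100 UMIs), fixed paralogues, assembly factors and the mitochondrially encoded genes, while members named for their distance from macrophage-like cells were picked once those values were known. Members and lists were chosen with earlier results of these data known. The calling steps were tested on simulated data.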

Additional observations from a re-analysis of the deposited data

Results flagged for a closer look

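The mitochondrially encoded genes differed between the libraries in opposite directions in neutrophil-like and mesenchymal-like cells. The difference between these 2 classes was not tested. The ratio of titled Blood to titled Control was 1.488 in neutrophil-like and 0.9007 in mesenchymal-like cells for all 13 genes, 1.409 and 0.8855 for those of complex I, 1.465 and 0.7979 for that of complex III, and 1.334 and 0.856 for those of complex V. Both sides rest on few cells. Without cells of shared barcodes, which held 94.4% and 94.6% of its UMIs, the mesenchymal-like class had 28 and 15 cells. Its ratio was then 1 (0.980 to 1.02). Without only the smaller cell of each shared barcode the mesenchymal-like ratio was 0.900 (0.894 to 0.907). When the libraries were clustered separately, the neutrophil-like log2 ratio was -0.34.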

How the results depend on the processing

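Of 887 recomputed values 590 stayed close to the reported one, 278 moved and 19 were reversals, that is, sign changes of a ratio whose interval left out 1. Close meant inside the counting interval for shares and ratios, equal or within 1.5-fold for member counts, and within a small fixed difference for medians. In all, 75 of 587 log2 ratios changed sign. The causes were not tested. The nuclear log2 ratios reported were 0.021 in macrophage-like, 0.033 in monocyte-like, 0.041 in neutrophil-like, 0.043 in conventional DC-like, 0.060 in T cell-like, -0.014 in NK cell-like and -0.00096 in mesenchymal-like cells, and those that moved follow. With cells thinned to 1000 UMIs they were 0.0026, 0.067, -0.033, 0.0095 and 0.081 in the first 5 classes and -0.043 in mesenchymal-like cells, and reversals were complex III (-0.023) and V (-0.010) in macrophage-like, mitochondrially encoded genes in conventional DC-like (0.026) and NK cell-like (0.015) and complex I in mesenchymal-like cells (-0.068). With the mean of each cell's CPM they were 0.0083 (macrophage-like), 0.051 (monocyte-like), -0.025 (neutrophil-like), 0.096 (T cell-like) and 0.039 (mesenchymal-like), and complex V in macrophage-like (-0.0094) and mitochondrially encoded genes in conventional DC-like (0.016) and NK cell-like cells (0.042) reversed. With each library clustered on its own they were 0.0090 (macrophage-like, with complex V reversed at -0.0099), 0.086 (monocyte-like), -0.47 (neutrophil-like, with 1 member higher, 37 lower and mitochondrially encoded genes reversed at -0.34) and 0.10 (T cell-like), and 0 members were higher in conventional DC-like cells. With doublets kept they were 0.50 (neutrophil-like, 37 higher and 1 lower) and 0.025 (T cell-like), and no conventional DC-like class was found. With clusters at equal weight they were 0.026 (macrophage-like), 0.19 (neutrophil-like, 20 higher), 0.12 (mesenchymal-like, 7 higher and 4 lower) and, reversed, -0.0092 in T cell-like cells, whose complex IV (-0.024) and V (-0.022) reversed too; 2 members were higher and 1 lower in conventional DC-like cells, and NK cell-like cells, a single cluster, gave no value. At resolution 2 they were 0.012 (macrophage-like, complex V reversed at -0.0074) and 0.062 (monocyte-like), with 0 higher in conventional DC-like cells. With at most 10% mitochondrial UMIs they were 0.027 (macrophage-like), 0.015 (monocyte-like, mitochondrially encoded genes reversed at -0.022) and 0.0086 (NK cell-like), with 0 higher in conventional DC-like cells. On a total without mitochondrial and ribosomal UMIs they were 0.029 (macrophage-like), 0.019 (T cell-like), -0.046 (NK cell-like, 1 lower) and 0.018 (mesenchymal-like), with 2 higher in conventional DC-like cells. Without the most abundant member of each complex they were 0.016 (macrophage-like, with complex II reversed at 0.0063 and V at -0.0014) and 0.020 (monocyte-like). Without barcodes found in both libraries, chosen after seeing the data, they were -0.036 (NK cell-like, mitochondrially encoded genes reversed at 0.0090) and 0.020 (mesenchymal-like, 7 higher, 5 lower, mitochondrially encoded genes reversed at 0.00051). Leaving out only the smaller cell of each shared barcode, also added, moved none of these values. With the lower of the fold thresholds tried, members lower were 1 in monocyte-like, 13 in neutrophil-like, 1 in T cell-like, 1 in conventional DC-like (2 higher) and 1 in mesenchymal-like cells (2 higher). With no minimum, 1 conventional DC-like, 2 NK cell-like and 1 mesenchymal-like members were lower, and with a pseudocount of 1 CPM 2 conventional DC-like members were higher. No paired analysis was possible because each group had 1 library. Depth limits the neutrophil-like values, with a median of 14.5 UMIs per member in the library titled Control.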

Other observations

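Small classes and clusters not described above also carried the nuclear genes. Migratory DC-like cells (63 and 60) had nuclear shares of 1.79% and 1.85% and mitochondrially encoded shares of 2.11% and 2.52%. Plasmacytoid DC-like cells (23 and 4) had nuclear shares of 2.47% and 2.67%. Among macrophage-like clusters the nuclear share was 2.50% and 2.57% in cluster 3, which held cells in cycle, and 2.08% and 2.17% in cluster 0.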
